A study of Mus musculus with 9 samples.

Results

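Mouse chromosome 15 was followed from end to end in clones of mouse embryonic cells of different ploidy, that is, with a different number of chromosome sets. The array held 743 genes that the RefSeq table places on this chromosome, and 514 of them were measured, out of 12428 measured genes with a name on all chromosomes. A gene was counted as measured when all 3 arrays of 1 ploidy or more showed its probe well above background, and the brightest probe stood for a gene with several. The chromosome was chosen from these data, by the shift of each clone from the mean of the diploid clones, so every value against the diploid clones below is a description and carries no test.

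The series compared 3 diploid clones (RRI2, RRI15 and RRI2-1), 3 triploid clones (RRI2-5, RRI2-12 and RRI2-15) and 3 tetraploid clones (RRI2-2, RRI2-4 and RRI2-6), each on 1 one-colour array. The genotype field gives p53-/- for all 9, so the diploid controls lack this tumour suppressor too. In the free-text descriptions, p53 is named only for diploid clone 1, and those of the other 8 clones carry higher numbers instead. All clones were untreated and grew in Eagle's minimum essential medium with fetal bovine serum.

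Each line is 1 clone, and the labels do not say whether clones came from separate cultures or animals, so p-values measure only the spread between these samples. Of 10 mesenchymal markers, 9 were above background on all 9 arrays, among them Col1a1, Vim and Sparc, and Thy1 was above it on 7 arrays. The epithelial markers Cdh1 and Epcam, the pluripotency markers Pou5f1 and Zfp42 and the blood markers Ptprc and Adgre1 were above background on 0 arrays. Of the other pluripotency markers, Nanog was above background on 9 arrays, Dppa5a on 8 and Sox2 on 4. Of the other epithelial markers, Krt18 was above it on 6 arrays and Krt8 on 2. On all arrays, 1 of 5 pluripotency markers, 2 of 3 endothelial markers and 3 of 3 neural markers were above background. In bulk RNA, fewer cells that express a gene and less of its RNA per cell cannot be told apart.

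A cell with an extra copy of a chromosome usually makes more RNA from many of its genes, so that a gain or loss can appear as a run of neighbouring genes that shift together. Mouse chromosome 15 carries Myc, a transcription factor that drives growth, and beside it Pvt1, a long noncoding RNA, and gains of this chromosome are well known from mouse lymphomas and from mouse cells kept in culture. Arrays report RNA relative to the rest of the same sample, and an equal gain of all chromosomes therefore leaves no shift.

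Across arrays, 44.8% to 50.9% of spots exceeded background clearly by the scanner's call, and 0 spots were saturated. Levels are log2 signals relative to the 75th percentile of the same array, which is 0. A shift is the level of a gene in a clone minus the mean of the diploid clones (for a diploid clone, of the other diploid clones), and each clone was then centred on its median shift over all 12428 named genes. That median lay between -0.07 and 0.19 in the 9 clones before centring. Diploid clone 1 was alone on its slide and the other 8 clones shared a slide.

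The promoters of 3 members that carry the gene-level results below are shown, each as the 250 bases before the gene's start in RefSeq (GRCm38.p6). Lifr and Syngr1 were higher in the triploid clones than in both other ploidies, and Itga5 was lower. Capitals mark the GC box GGGCGG or its reverse complement CCGCCC, the core of sites that bind Sp1, itself encoded on this chromosome.
Lifr, chr15:7129322-7129571, + strand: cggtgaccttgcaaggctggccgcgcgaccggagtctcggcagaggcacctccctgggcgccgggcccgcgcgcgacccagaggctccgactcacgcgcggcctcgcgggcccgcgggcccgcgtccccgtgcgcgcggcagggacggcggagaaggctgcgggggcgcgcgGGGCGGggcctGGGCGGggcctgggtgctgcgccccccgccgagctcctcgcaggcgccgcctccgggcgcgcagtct
Syngr1, chr15:80091084-80091333, + strand: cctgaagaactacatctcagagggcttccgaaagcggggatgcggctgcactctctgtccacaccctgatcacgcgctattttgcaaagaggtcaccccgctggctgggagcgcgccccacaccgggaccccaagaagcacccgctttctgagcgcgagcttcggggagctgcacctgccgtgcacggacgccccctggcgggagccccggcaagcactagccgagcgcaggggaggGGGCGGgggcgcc
Itga5, chr15:103366792-103367041, - strand: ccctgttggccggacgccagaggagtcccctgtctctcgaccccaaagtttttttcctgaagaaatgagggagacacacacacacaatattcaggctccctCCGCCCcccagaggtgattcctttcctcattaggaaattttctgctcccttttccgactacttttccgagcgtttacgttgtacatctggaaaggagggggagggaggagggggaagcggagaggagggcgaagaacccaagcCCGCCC
On either strand, the Lifr and Itga5 promoters held 2 GC boxes each and the Syngr1 promoter held 1. The E-box CACGTG and the TATA box TATAAA were each found 0 times in these 3 windows. Of 27025 promoters of the same length in the RefSeq table, 32.9% held a GC box, 6.05% the E-box and 13.0% the TATA box on either strand. A match is a description of letters, not a binding site. The table held promoters of 283 of the 514 members, too few for a comparison of the chromosome with others.

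Over the whole chromosome, the median gene lay above the diploid mean in each triploid and tetraploid clone. The median shift was 0.11, 0.25 and 0.29 in triploid clones 1 to 3, and 0.19, 0.44 and 0.07 in tetraploid clones 1 to 3. In the diploid clones, each set against the other diploid clones, it was -0.02, 0.00 and -0.00. In these values the 6 triploid and tetraploid clones lay above the 3 diploid clones, with tetraploid clone 2 the highest and tetraploid clone 3 nearest to 0. As folds of the diploid level these medians were 1.08, 1.19 and 1.22 in the triploid clones and 1.14, 1.36 and 1.05 in the tetraploid clones. The mean over clones was 0.22 ± 0.09 (SD, n = 3) for triploid and 0.23 ± 0.19 (SD, n = 3) for tetraploid clones.

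The triploid and tetraploid medians differed by -0.02 on the log2 scale, less than the spread between clones of either ploidy. These medians are shifts from the diploid mean, by which the chromosome was chosen, so their difference is a description. Without tetraploid clone 2, the tetraploid mean was 0.13. Without the filter on dim genes, which brings in all 743 genes, the means were 0.12 and 0.13. The gap between the diploid clones and the other 6 closed under 2 settings. With no filter, diploid clone 3 lay at 0.06, above triploid clone 1 at 0.015 and tetraploid clone 1 at 0.05. With no centring of the clones, diploid clone 3 lay at 0.09, above tetraploid clone 3 at 0.08.

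**Figure D1:**
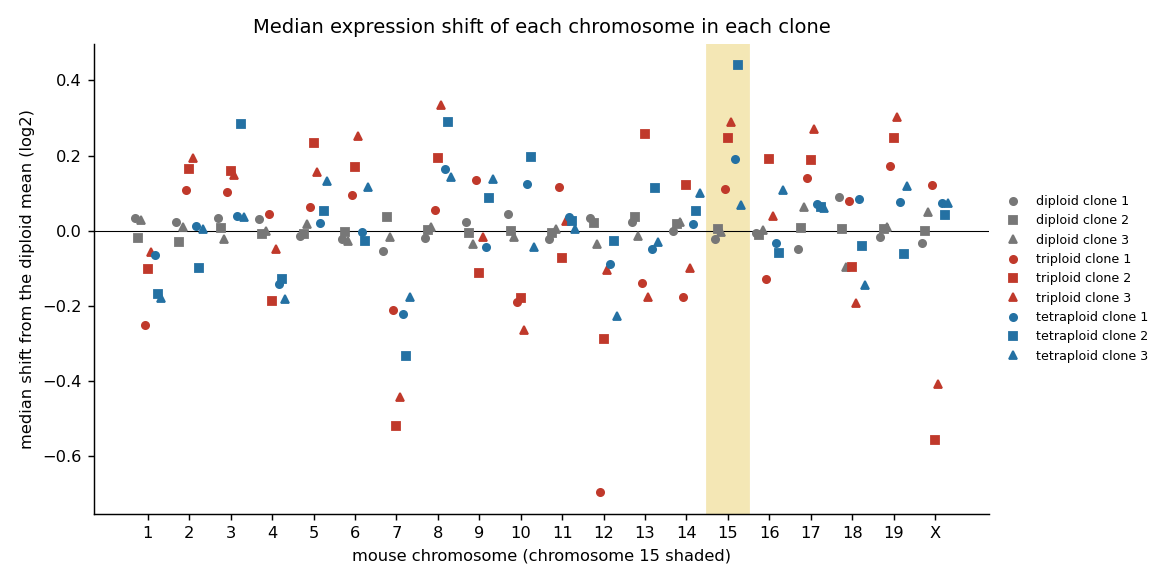
Median expression shift (log2, vertical axis) of the measured genes of each mouse chromosome (horizontal axis) in each of the 9 clones, with chromosome 15 shaded; grey, red and blue points are diploid, triploid and tetraploid clones. On chromosome 15 the 6 coloured points lie between 0.07 and 0.44, all above the diploid points.

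Among 20 chromosomes, chromosome 15 had the highest median shift in tetraploid clones 1 and 2 and ranked 9 from the top in tetraploid clone 3. In triploid clones 1 to 3 it ranked 6, 2 and 3. In the diploid clones it ranked 17, 7 and 12. Chromosomes 3, 5, 8 and 17 also lay above 0 in all 6 triploid and tetraploid clones. Chromosome 8, with 684 measured genes, lay at 0.19 ± 0.14 in triploid and 0.20 ± 0.08 (SD, n = 3) in tetraploid clones. Chromosome 17, with 627 genes, lay at 0.20 ± 0.07 and 0.07 ± 0.01 (SD, n = 3). Chromosome 19, with 442 genes, was at 0.24 ± 0.06 (SD, n = 3) in triploid clones, above chromosome 15, and at 0.08, -0.06 and 0.12 in the tetraploid clones. Chromosome 7, with 984 genes, lay on the other side, at -0.39 ± 0.16 and -0.24 ± 0.08 (SD, n = 3).

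The shift of the whole chromosome was small beside the spread of its genes. The middle 50% of its genes spanned between 0.49 and 1.00 log2 units within a clone, and genes above and below the diploid mean occurred in every clone. The share of chromosome 15 genes above 0 was 58.0%, 62.8% and 65.2% in the triploid clones and 65.6%, 71.6% and 55.6% in the tetraploid clones. In the diploid clones it was 47.9%, 50.2% and 49.8%. Over all named genes the centring makes as many genes lie above 0 as below it. The plot of the spread of shifts within each clone shows the boxes moved upward while their lower parts stayed below 0.

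**Figure D2:**
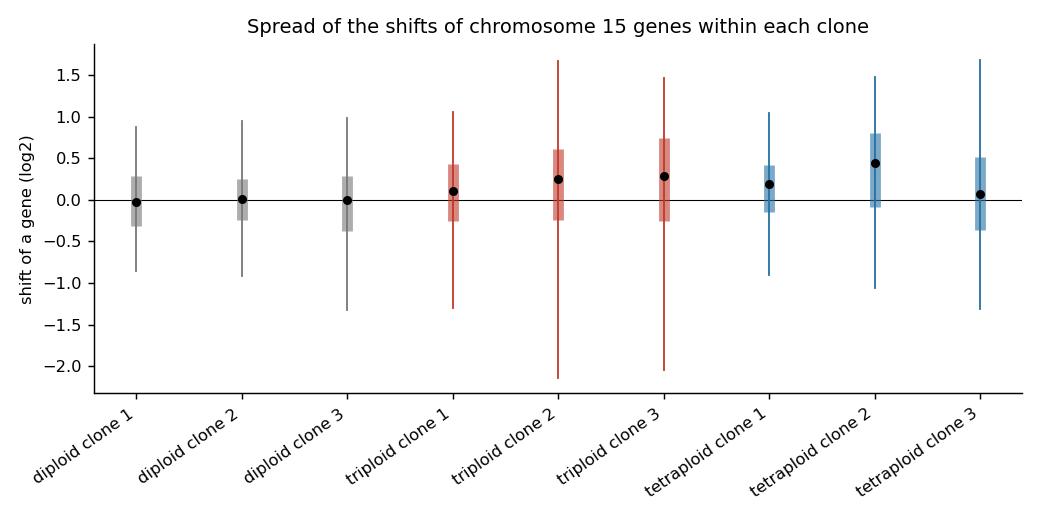
Shifts (log2, vertical axis) of the 514 chromosome 15 genes in each clone (horizontal axis); points are medians, thick bars the middle 50% of genes and thin lines the middle 90%. The thick bars cross 0 in all 9 clones, and the highest median is the 0.44 of tetraploid clone 2.

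Genes that lay above 0 in all 6 triploid and tetraploid clones numbered 110, or 21.4% of the chromosome 15 genes, where 11.0% of all named genes did. Genes below 0 in all 6 clones numbered 40, or 7.78%, against 11.0% of all named genes. More than 1 log2 unit above the diploid mean lay 5.45%, 14.6% and 11.7% of the genes in tetraploid clones 1 to 3, against 3.56%, 4.26% and 10.0% of all named genes. In triploid clones 1 to 3 these shares were 5.25%, 9.92% and 14.2%, against 5.1%, 7.35% and 7.66%. Tetraploid clone 2 and triploid clone 3 thus held the most genes far above the diploid mean. These shares come from the same shifts that chose the chromosome and are given as description.

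The profile along the chromosome was drawn as the median shift in 21 windows of 25 neighbouring measured genes, the last with 14, from Selenop at the centromere-proximal end to Pde1b. The shift was spread over most of the length rather than held in 1 block, less so in triploid clone 1 and tetraploid clone 3. In the triploid clones 14, 18 and 19 windows lay above 0, and in the tetraploid clones 20, 21 and 13 did. In the diploid clones 9, 11 and 12 windows did, the last close to the 13 of tetraploid clone 3. On the other chromosomes together, between 49.3% and 52.8% of 477 such windows lay above 0 in a clone. The centring on all named genes holds this share near an even split, so it is no separate yardstick. In windows of 10 and of 50 genes, 77.6% and 87.9% of the windows of the 6 triploid and tetraploid clones lay above 0 on average, against 83.3% in windows of 25.

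**Figure D3:**
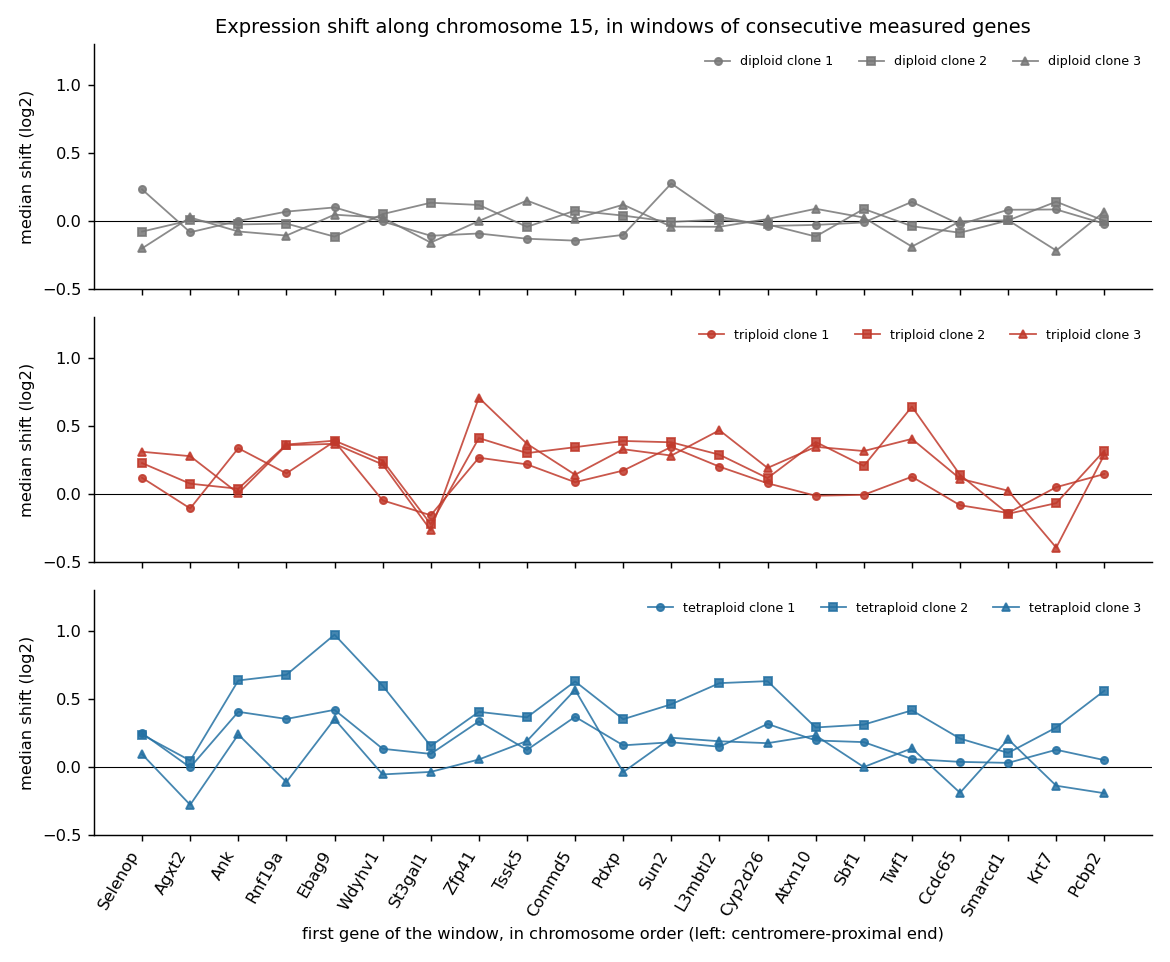
Median shift (log2, vertical axis) in windows of 25 neighbouring measured genes along chromosome 15 (horizontal axis, named by each window's first gene), with a panel for each ploidy and a line for each clone. Tetraploid clone 2 lies above 0 in all 21 windows and peaks at 0.97 in the window that starts at Ebag9, where the triploid clones lie between 0.37 and 0.39.

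Tetraploid clones 1 and 2 had their highest window in the segment from Ebag9 to Atad2. Its median shift was 0.42, 0.97 and 0.35 in the tetraploid clones, and 0.39, 0.39 and 0.37 in the triploid clones. It was 0.10, -0.11 and 0.05 in the diploid clones, so that the diploid clones and the other 6 did not overlap. The 0.97 of tetraploid clone 2 lay above the highest of the 477 windows of other chromosomes in that clone, 0.55, and 8 of the 21 chromosome 15 windows did so in this clone. In tetraploid clone 1 and triploid clone 3, 2 and 1 windows lay above the highest window elsewhere, and 0 did in each of the other clones.

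This segment holds Rad21, a subunit of the cohesin ring that keeps sister chromatids together, Dscc1, part of a clamp loader needed for cohesion, Mtbp, a factor for the start of DNA replication, and Atad2, a chromatin protein with a bromodomain. Rad21 had levels of 5.37, 5.07 and 5.15 in diploid, 5.90, 6.00 and 5.92 in triploid and 5.75, 6.55 and 5.62 in tetraploid clones. All 6 triploid and tetraploid clones lay above the diploid clones, and tetraploid clone 2 was the highest. The levels of Dscc1 were 1.14, 0.75 and 1.38 in diploid, 2.28, 2.22 and 2.28 in triploid and 1.79, 3.33 and 1.68 in tetraploid clones. Mtbp stood at 3.45, 3.37 and 3.27 in diploid, 4.30, 4.85 and 4.90 in triploid and 4.14, 5.02 and 3.73 in tetraploid clones. For both genes the diploid clones were again the lowest 3. The same segment also holds genes far below the diploid mean in the triploid clones, such as Ccn3 and Tnfrsf11b, described below.

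The window next to it, from Wdyhv1 to Ndrg1, holds Myc and Pvt1. Its median shift was -0.04, 0.25 and 0.22 in triploid and 0.14, 0.60 and -0.05 in tetraploid clones, so that 1 clone of each ploidy lay just below 0. Myc itself had levels of 2.47, 2.19 and 2.55 in diploid, 2.45, 2.87 and 2.90 in triploid and 2.48, 2.60 and 1.81 in tetraploid clones. Its groups overlapped, and tetraploid clone 3 was the lowest of the 9. Pvt1 ranged from 2.61 to 4.16 in the diploid clones alone, which covered the levels of all other clones, 2.66 to 3.68.

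Parts of the chromosome did not follow its median. From St3gal1 to Gpihbp1, the segment with the Ly6 gene cluster, the triploid clones lay at -0.15, -0.22 and -0.26 and the tetraploid clones at 0.10, 0.16 and -0.03. The diploid clones there lay at -0.11, 0.13 and -0.16 and overlapped with the tetraploid clones, of which clone 2 lay above them. From Krt7 to Prr13, with the type II keratin genes, the triploid clones lay at 0.05, -0.07 and -0.39. Next to the Ly6 segment, from Zfp41 to Hgh1, the triploid clones were at 0.27, 0.41 and 0.71, the last the highest triploid window of the chromosome. In the segment from Commd5 to Sh3bp1 the tetraploid clones lay at 0.37, 0.63 and 0.57, the last the highest window of tetraploid clone 3.

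The chromosome was also split by position into 3 stretches of 171, 171 and 172 genes. The stretch from Parvb to Pde1b shifted by 0.03, 0.21 and 0.24 in triploid and 0.12, 0.29 and 0.03 in tetraploid clones. The stretch from Ly6a to Samm50 shifted by 0.20, 0.34 and 0.37 and by 0.23, 0.51 and 0.21. In the stretch from Selenop to Ly6e the values were 0.15, 0.10 and 0.22 and 0.25, 0.52 and -0.01. The diploid clones lay at 0.05, 0.00 and -0.00 from Parvb, at -0.08, 0.02 and 0.04 from Ly6a and at 0.03, -0.02 and -0.06 from Selenop. In the stretch from Parvb, triploid clone 1 and tetraploid clone 3 lay below diploid clone 1. In the stretch from Selenop, tetraploid clone 3 did.

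The shift also differed with the brightness of the probes. The 171 dimmest genes had median shifts of 0.05, -0.01 and 0.02 in triploid and 0.03, 0.09 and 0.00 in tetraploid clones. The 172 brightest had 0.23, 0.32 and 0.35 in triploid and 0.26, 0.63 and 0.05 in tetraploid clones. Genes of other chromosomes in the same range of brightness lay between -0.18 and -0.01 (dim) and between -0.07 and 0.10 (bright) in these 6 clones. In the diploid clones the dimmest members had 0.03, 0.13 and -0.23, a range that held the values of the 6 clones. The brightest members had -0.11, -0.01 and 0.09 there, the last above tetraploid clone 3. The part of brightness in the shift of the chromosome was not tested.

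Further probes on the chromosome did not enter its choice. Of the members, 106 had 122 further measured probes, and these had median shifts of 0.22, 0.41 and 0.44 in triploid and 0.16, 0.51 and 0.12 in tetraploid clones. The brightest probes of the same genes had 0.13, 0.35 and 0.35 and 0.18, 0.47 and 0.06. In the diploid clones the further probes had 0.10, 0.05 and -0.13. These probes bind RNA of the same genes in the same samples, so they repeat the measurement and not the samples. Probes named only by coordinates on chromosome 15 (mm9), for transcripts without a RefSeq name, were centred on the median of all such probes. Of 688 on the chromosome 187 were measured, and their median shifts were 0.03, 0.06 and -0.04 in triploid and 0.02, 0.07 and -0.00 in tetraploid clones. Centred on the named genes instead, as the members are, the same probes lay at 0.18, -0.01 and -0.21 in triploid, -0.18, -0.08 and -0.52 in tetraploid and -0.24, 0.25 and -0.13 in diploid clones, with groups that overlapped. Their median level was -1.81, near the -1.69 of the 171 dimmest genes.

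With limma over all 21791 features, the named genes together with unnamed probes, and Benjamini-Hochberg adjustment at 0.05, the comparison of triploid with diploid clones called 9 of 514 members, of which 2 were higher and 7 lower. Over all features 1.9% were called, 0.633% higher and 1.26% lower. Since the chromosome was chosen on this contrast, the count is a description. Between tetraploid and diploid clones 0 members were called, with 0.0734% called over all features; at an unadjusted p of 0.05, 96 members were higher and 19 lower, where 6.39% and 8.39% of all features were. Differences of levels in this fit are not centred on the clone's median, and the median over all features was 0.09 for triploid and -0.02 for tetraploid against diploid clones. Over named genes alone, which all members are, these medians were 0.10 and 0.10.

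Members whose triploid clones all lay above the diploid clones numbered 150, or 29.2%, beside 17.1% of all features, and 42, or 8.17%, lay below, beside 10.8%. For the tetraploid clones, 139 members, or 27.0%, lay above all diploid clones, beside 11.0%, and 22, or 4.28%, lay below, beside 11.2%. The features include unnamed probes, whereas all members are named genes, and these shares were not counted over named genes alone. Both comparisons share the diploid clones and the choice of the chromosome rests on them. They are described and not tested.

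The triploid and tetraploid clones were compared with each other directly. The difference itself uses no diploid level, while its spread was estimated over all 9 arrays, and without diploid clone 1, 2 or 3 the fit called 12, 15 or 20 members. Of 514 members 19, or 3.70%, were called, 3 higher and 16 lower in triploid clones, beside 2.71% called over all features, 1.09% higher and 1.62% lower. Of these calls, those of Syngr1 and Ccn3 were kept in all 9 fits that left out a clone. Those of Ly6a and Ly6c1 were lost without triploid clone 3 or tetraploid clone 1 or 3, and those of Rspo2, Itga5, Sdc2, Lynx1 and Slc38a1 also without triploid clone 2. Slc2a13 was lost without triploid clone 2 or 3 or tetraploid clone 3, and the other 9 calls were kept in 1 to 4 of the 9 fits. With only the 456 members above background on all 9 arrays, 13 were called, 11 of them among the 19. Members whose triploid clones all lay below the tetraploid clones numbered 84, or 16.3%, beside 11.3% of all features, and 33, or 6.42%, lay above, beside 14.7%. The median difference over the members was 0.05, beside 0.04 over named genes and 0.16 over all features, which include unnamed probes. In the median the members thus lay near the named genes, and the shares without overlap were not counted over named genes alone.

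Syngr1, which encodes synaptogyrin, a membrane protein of vesicles, was called between triploid and tetraploid clones in all 9 fits that left out a clone and in all 10 other settings. Its levels were -1.64, -1.52 and -1.24 in diploid, 0.82, 0.69 and 0.80 in triploid and -2.44, -1.66 and -2.43 in tetraploid clones. The triploid clones lay far above both other groups, which lay close to each other. It was higher in triploid than in tetraploid clones by 2.95 ± 0.26 (SE; limma, adjusted p = 0.00210, higher in 3 of 3 clones) and than in diploid clones by 2.24 ± 0.26 (SE).

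Lifr, the receptor chain for leukemia inhibitory factor, had levels of 0.10, -0.84 and -1.50 in diploid, 1.39, 1.35 and 1.38 in triploid and -0.34, -0.09 and -0.49 in tetraploid clones. Its triploid clones were nearly equal and above all others. The differences were 2.12 ± 0.36 (SE) from diploid and 1.68 ± 0.36 (SE; limma, adjusted p = 0.0457) from tetraploid clones. The call against tetraploid clones was kept in 2 of the 9 fits that left out a clone and in 6 of 10 other settings. Slc38a1, a carrier of glutamine and other neutral amino acids, stood at 4.34, 3.96 and 2.41 in diploid, 4.18, 4.26 and 4.96 in triploid and 1.78, 2.14 and 2.02 in tetraploid clones. The tetraploid clones were the low group, and triploid exceeded tetraploid clones by 2.49 ± 0.46 (SE; limma, adjusted p = 0.0313).

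Rspo2, a secreted enhancer of Wnt signalling, had levels of 4.60, 3.77 and 5.55 in diploid, 1.24, -5.87 and -4.00 in triploid and 5.90, 5.44 and 5.61 in tetraploid clones. Among the triploid clones, only clone 1 was above background. The difference from tetraploid clones was -8.53 ± 1.46 (SE; limma, adjusted p = 0.0233). This fitted difference rests in part on signals below background. With those raised to the lowest signal well above background on their arrays, it was -7.76. Ccn3, a matrix-associated signalling protein, had levels of 0.30, -0.69 and 0.21 in diploid, -2.59, -4.29 and -5.42 in triploid and 1.32, 1.14 and 3.05 in tetraploid clones. The groups did not overlap, and 1 of 3 triploid clones was above background. Its triploid clones lay below the tetraploid clones by -5.94 ± 0.73 (SE; limma, adjusted p = 0.00687), lower in 3 of 3 clones, and by -5.23 with the dark arrays raised in the same way. Both calls were kept with that floor, and both were lost where all 9 arrays had to be above background. Both genes belonged to the 8 measured members of the list of Wnt and secreted signals, of which 0 were called higher and 2 lower against tetraploid clones, with a median difference of -0.97.

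C1qtnf3, a secreted relative of adiponectin, was low in both polyploid groups. Its levels were 1.71, 3.29 and 1.21 in diploid, -1.69, -3.13 and -3.28 in triploid and -3.08, -4.49 and -1.87 in tetraploid clones. The diploid clones stood apart, by 4.77 ± 0.75 (SE) above triploid and 5.21 ± 0.75 (SE) above tetraploid clones, of which 2 of 3 were above background. Slc2a13, a transporter of inositol, was not well above background in any triploid clone, and its level was -1.24, -1.85 and -0.78 in diploid clones and ran from -1.44 to 0.39 in tetraploid clones. Bounds were taken against the lowest signal well above background on the triploid arrays. By these Slc2a13 was at least 5.39-fold lower there than in diploid and at least 8.22-fold lower than in tetraploid clones. Parvb, an adaptor at integrin adhesions, was likewise not well above background in any triploid clone, at least 3.44-fold lower than in tetraploid clones. Slc2a13 and Parvb passed the detection rule only through ploidies where they were higher, so these bounds are descriptions. Their calls between triploid and tetraploid clones were lost where all 9 arrays had to be above background.

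The Ly6 family, small proteins mostly held at the surface by a lipid anchor, although Slurp1 is secreted, lies in the segment described above. Of 13 members on the array 8 were measured, and 4 of them (Ly6a, Ly6c1, Lynx1 and Slurp1) were called lower in triploid than in tetraploid clones, with 0 called higher and a median difference of -1.46. Ly6a, also known as the stem cell antigen Sca-1, had levels of 4.78, 4.99 and 4.09 in diploid, 2.20, -2.31 and 0.40 in triploid and 6.36, 5.21 and 7.34 in tetraploid clones. The 3 ploidies did not overlap, with the triploid clones lowest and the tetraploid clones highest. The triploid clones fell below the tetraploid clones by -6.20 ± 0.99 (SE; limma, adjusted p = 0.0178).

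Ly6c1 followed the same order, with 5.94, 6.23 and 5.41 in diploid, 3.92, 0.62 and 3.02 in triploid and 7.62, 6.54 and 8.60 in tetraploid clones. The difference was -5.06 ± 0.80 (SE; limma, adjusted p = 0.0173). Lynx1, a modulator of nicotinic receptors, had levels of 0.26, 0.15 and 1.20 in diploid, -0.94, -1.98 and -1.57 in triploid and 1.68, 0.59 and 2.90 in tetraploid clones, where the triploid clones lay apart and the others overlapped. Near-identical copies exist within this cluster, and how far a probe also binds RNA of a relative was not tested. Ly6e and Ly6f showed overlapping groups, and Lypd2 had its lowest levels in the tetraploid clones, -2.58, -2.37 and -2.83. Against diploid clones, 6 of the 8 had triploid clones that all lay lower, beside 8.17% of members and 10.8% of all features.

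**Figure D4:**
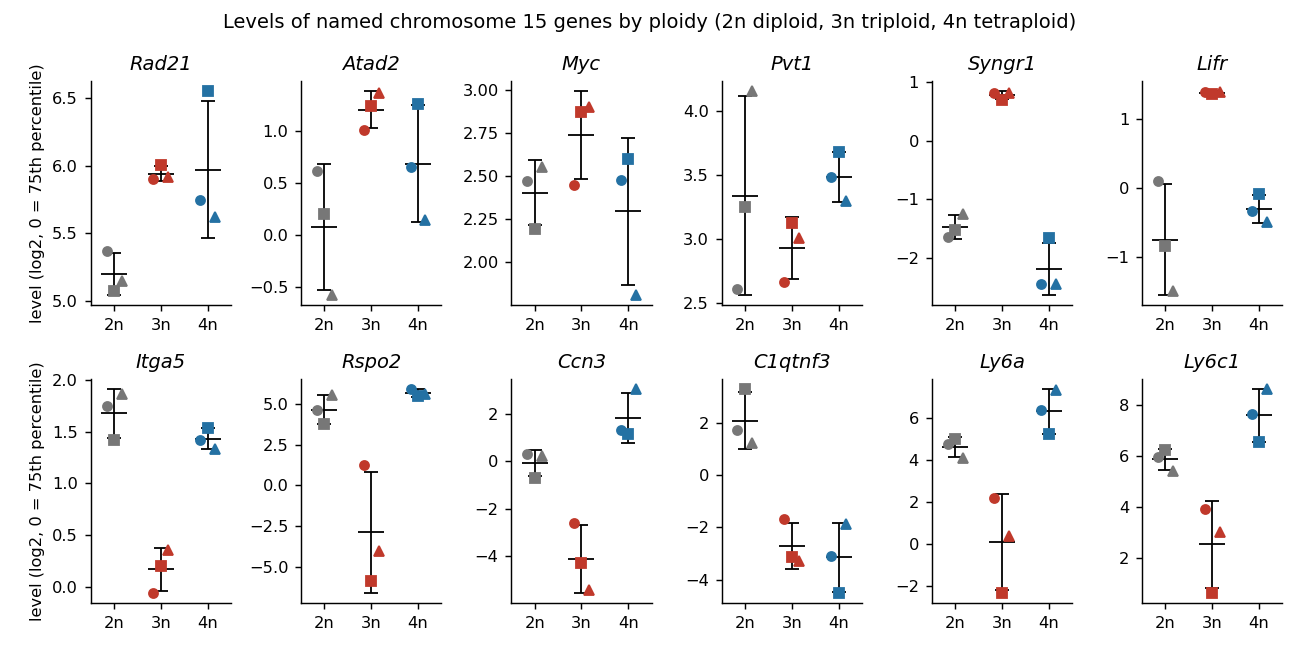
Levels (log2, 0 is the array's 75th percentile, vertical axis) of 12 chromosome 15 genes in diploid (2n), triploid (3n) and tetraploid (4n) clones (horizontal axis); circles, squares and triangles are clones 1 to 3, horizontal lines means and bars the SD (n = 3), with a scale of its own for each gene. Syngr1 lies between 0.69 and 0.82 in triploid clones and at most at -1.24 in all others, while Rspo2, Ccn3, Ly6a and Ly6c1 are lowest in triploid clones.

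Itga5, the integrin chain that binds fibronectin, had levels of 1.75, 1.41 and 1.87 in diploid, -0.06, 0.20 and 0.35 in triploid and 1.42, 1.54 and 1.34 in tetraploid clones. The triploid clones lay apart from both other groups, which overlapped, and the difference from tetraploid clones was -1.27 ± 0.22 (SE; limma, adjusted p = 0.0233). Plec, the linker plectin of the cytoskeleton, was at 5.91, 6.02 and 6.06 in diploid, 4.95, 5.05 and 5.06 in triploid and 6.06, 5.77 and 6.03 in tetraploid clones. The triploid clones were lower by -0.93 ± 0.19 (SE; limma, adjusted p = 0.0390) than tetraploid clones. Sdc2, a syndecan proteoglycan, was at 4.26, 3.92 and 4.77 in diploid, 4.18, 3.50 and 3.90 in triploid and 5.49, 5.71 and 5.66 in tetraploid clones. Here the tetraploid clones were the group apart, by 1.76 ± 0.28 (SE) above triploid clones (limma, adjusted p = 0.0173).

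Of the 10 measured members of the matrix and adhesion list, 2 (Itga5 and the cadherin gene Cdh18) were called lower and 0 higher in triploid than in tetraploid clones, with a median difference of -0.48. Tnfrsf11b, the decoy receptor osteoprotegerin, had levels of 3.21, 3.30 and 1.91 in diploid, -2.02, 0.27 and -5.86 in triploid and 5.17, 2.80 and 2.80 in tetraploid clones, with 2 of 3 triploid clones above background. Its triploid clones were the lowest and varied most, and the difference from tetraploid clones was -6.13 ± 1.34 (SE; limma, adjusted p = 0.0479), or -5.41 with the dark array raised to that floor. This call was kept in 2 of the 9 fits that left out a clone and was lost where all 9 arrays had to be above background. With Lifr it was 1 of 2 called among 10 measured receptors of cytokines and growth factors, 1 higher and 1 lower. Cyb5r3 and Smagp were also called lower in triploid than in tetraploid clones, with log2 differences of -1.25 ± 0.27 and -3.04 ± 0.64 (SE; limma, adjusted p = 0.0458 and 0.0436).

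Among 9 measured keratin genes, 0 were called between triploid and tetraploid clones. The levels of Krt7, a keratin of simple epithelia, were 1.13, -0.63 and -0.07 in diploid, -2.50, -1.76 and -1.89 in triploid and -0.82, -1.29 and -0.80 in tetraploid clones, a series of 3 groups with no overlap. Krt18, a partner of type II keratins in filaments and one of the epithelial markers, was above background on 6 arrays, at 0.96, 0.81 and -1.49 in diploid clones and between -4.97 and -1.57 in the other 6 clones. Of the Hoxc cluster, the array held 9 genes and only Hoxc12 was measured, with overlapping groups.

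Of 12 measured genes of cell division and chromosome segregation, 7 had triploid clones and 5 had tetraploid clones that all lay above the diploid clones, with 0 below in either comparison. The median differences were 0.75 and 0.62, beside 0.31 and 0.37 for all chromosome 15 genes, and 0 were called between triploid and tetraploid clones. All triploid clones lay above the diploid clones in 29.2% of members and 17.1% of all features. For tetraploid clones these shares were 27.0% and 11.0%. Counts against the diploid clones in this and the following lists rest on the contrast that chose the chromosome and are descriptions. Besides Rad21, Dscc1, Mtbp and Atad2 the 7 included Rangap1, Espl1 and Racgap1. Racgap1, needed for cytokinesis, was at 4.56, 4.45 and 4.34 in diploid, 4.87, 5.57 and 5.90 in triploid and 4.82, 5.75 and 4.68 in tetraploid clones. Within each polyploid group 1 or 2 clones stood well above the rest, and tetraploid clone 2 was among the high ones.

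The list's median shift per clone was 0.30, 0.84 and 0.85 in triploid and 0.28, 1.05 and 0.14 in tetraploid clones. Triploid clone 1 and tetraploid clones 1 and 3 were thus the lower clones, the same ones that had low medians over the whole chromosome. In the diploid clones the median shift of the list was 0.18, -0.17 and -0.24. Diploid clone 1 thus lay above tetraploid clone 3. The DNA repair list held 7 measured genes, 2 of them shared with the former list. They were Rad21, Dscc1, Rnf139, Adck5, Recql4, Apobec3 and Xrcc6. Not all of these are repair genes, so counts are for the list as drawn. The 4 with all triploid clones above the diploid clones included Xrcc6, the Ku70 subunit that binds broken DNA ends, and Recql4, a helicase. Xrcc6 had levels of 4.85, 4.51 and 4.44 in diploid, 5.76, 5.63 and 5.93 in triploid and 5.34, 6.07 and 4.80 in tetraploid clones. All triploid clones lay above the diploid clones, and tetraploid clone 3 overlapped with them.

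Of 13 genes of the ribosome and of translation, 8 had all triploid clones above the diploid clones and 0 had all tetraploid clones above them. Over all members these shares were 29.2% and 27.0%, and over all features 17.1% and 11.0%. Eif3d, a subunit of an initiation factor, was at 7.34, 7.24 and 7.05 in diploid, 8.03, 8.32 and 8.39 in triploid and 7.84, 8.30 and 6.97 in tetraploid clones. Tetraploid clone 3 was the lowest of the 9 for this gene, and its median shift over the list was -0.30, beside 0.15 and 0.52 in tetraploid clones 1 and 2. In the triploid clones the list's median shift was 0.47, 0.39 and 0.47, and in the diploid clones it was -0.23, 0.15 and 0.05. The difference between triploid and tetraploid clones had a median of 0.31 over the list, with 0 called.

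**Figure D5:**
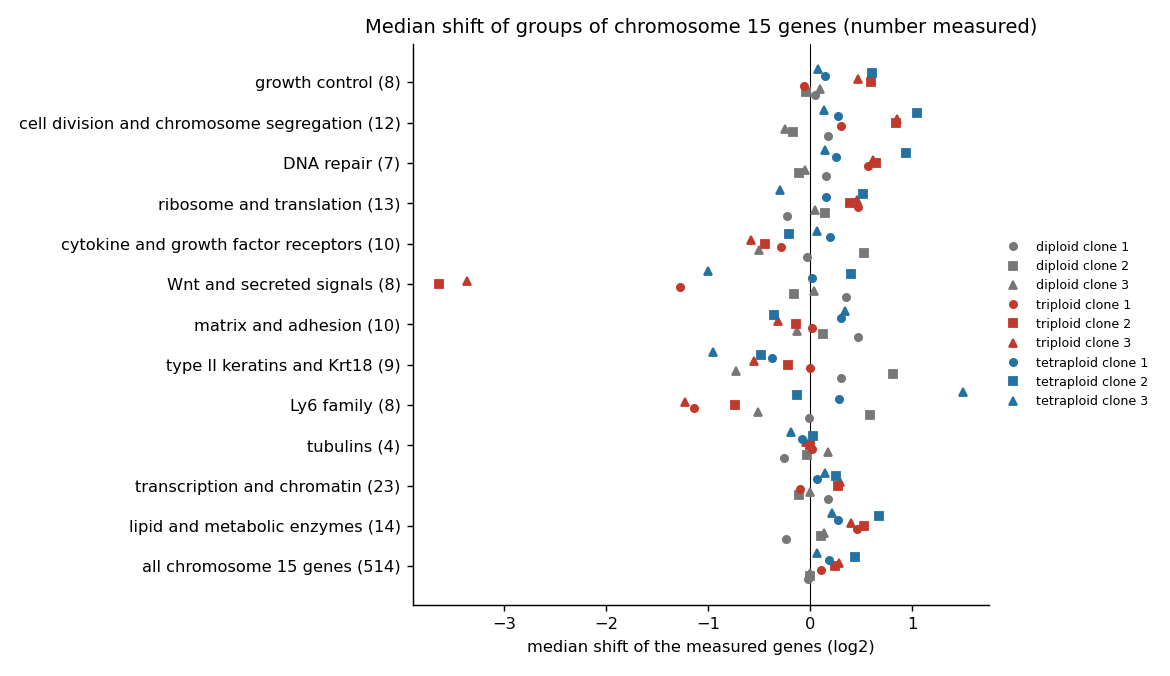
Median shift (log2, horizontal axis) of the measured genes of each list of chromosome 15 genes (vertical axis, number measured in parentheses), a point per clone; grey, red and blue are diploid, triploid and tetraploid clones. The 12 cell division genes lie between 0.14 and 1.05 in the 6 coloured clones and between -0.24 and 0.18 in the diploid clones, which overlap. The 8 Wnt and secreted signals fall to -3.63 in triploid clone 2.

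Of 14 enzymes of lipid and energy metabolism, 9 had all triploid clones and 7 had all tetraploid clones above the diploid clones, with 0 below. Their median differences were 0.54 and 0.47. Shares of clones lying above in this way were 29.2% and 27.0% over all members and 17.1% and 11.0% over all features. Oxct1, which lets cells burn ketone bodies, was at 5.83, 5.83 and 6.12 in diploid, 6.36, 6.74 and 6.60 in triploid and 6.85, 7.22 and 6.42 in tetraploid clones. Sqle, an oxygenase of cholesterol synthesis, was at 4.52, 3.93 and 4.31 in diploid, 4.58, 5.02 and 4.82 in triploid and 5.28, 5.46 and 4.70 in tetraploid clones. For both, the diploid clones were the lowest 3 of the 9. The sulphur enzymes Tst and Mpst and the phospholipase gene Pla2g6 also had no overlap between the diploid clones and the rest.

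Of 23 regulators of transcription and chromatin, 4 had all triploid clones and 8 had all tetraploid clones above the diploid clones, and 1 (Nr4a1) had both below. The shares above were 17.1% and 11.0% over all features and 29.2% and 27.0% over all members. The triploid count of the regulators thus lay near the share over all features. The median differences of the regulators were 0.30 in each comparison, near the medians of the whole chromosome. Nr4a1, an immediate early nuclear receptor, was at 3.52, 3.98 and 3.70 in diploid, 3.50, 2.79 and 2.54 in triploid and 2.79, 2.85 and 2.51 in tetraploid clones. Of 8 genes of growth control, 2 had all triploid clones and 4 had all tetraploid clones above the diploid clones, counts to be read beside the same shares. Ptk2, the focal adhesion kinase, was at 1.18, 1.03 and 1.04 in diploid, 1.02, 1.95 and 2.20 in triploid and 1.47, 1.92 and 1.35 in tetraploid clones, with triploid clone 1 within the diploid range. The tubulin list held 4 genes, Tuba1a, Tuba1b, Tuba1c and Tubgcp6, the last not itself a tubulin. These 4 genes had median differences of 0.05 and -0.03, and in the triploid clones 1 of them, Tuba1c, lay above all diploid clones.

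Of the 514 members, 456 were above background on all 9 arrays. The dimmest members inside the rule were Gtsf1, Tafa5 and Dnajc22, with mean levels of -4.31, -3.77 and -3.62. The brightest genes just outside it were Cmbl, Itgb7 and Col2a1, with -2.37, -2.64 and -2.71, above background on 4, 5 and 4 arrays but not on all 3 of any ploidy. Of the 229 genes left out, 94 were above background on at least 1 array.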

How the data were processed

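RNA from 9 clones was hybridised to one-colour (Cy3) Agilent arrays. The scanner software was Feature Extraction 10.7.3.1, per the file headers, and the deposited processed signals are intensities after background subtraction and detrending, with no normalization between arrays. A second deposited file, the authors' log2 values, was used as an alternative. Within 0.001 at 100% of probes it held, per array, the log2 signal less 1 fixed offset and less the value of diploid clone 1.

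From the 59305 spots that are not controls, outlier and non-uniform spots were left out, which removed 83 of 55681 probes, spots of a probe were averaged as log2 values, and the 75th percentile of an array was set to 0. RefSeq accessions of the array design (drawn on mm9) were matched to symbols and gene order through a RefSeq table of GRCm38.p6; 26413 probes had a symbol. Gene starts in that table served only to order the genes, and distances were not used. The coordinates printed with the 3 promoters are of GRCm38.p6. limma 3.58.1 in R 4.3.3 fitted 1 mean per ploidy over all 9 arrays and 21791 features (prior degrees of freedom 3.19), with Benjamini-Hochberg adjustment at 0.05; the model was tested on simulated data. Normexp (offset 50) was run on the median pixel intensities in the deposited files. The number of clones limits the precision.

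The genes named were, for each pair of ploidies and each direction, the 5 called members with the largest difference and no overlap of clones, the members of 13 gene lists, the ends of windows and the genes next to the detection limit; Plec, Sdc2, Cyb5r3, Parvb and Smagp were added after their calls were seen, and Pvt1 and Myc belong to the growth list. The values of 1 called member are not reported here. The chromosome and the lists were chosen with earlier results of these data known. Other settings tried were other normalizations, filters, probe summaries, window lengths and blocks and leaving out each clone.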

Additional observations from a re-analysis of the deposited data

How the results depend on the processing

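Leaving out 1 clone at a time, the members called between triploid and diploid clones numbered 1 to 42, between tetraploid and diploid clones 0 to 1, and between triploid and tetraploid clones 2 to 40. The highest counts, 42, 1 and 40, all came without triploid clone 1. Without triploid clone 2 the counts were 1, 0 and 5, without triploid clone 3 they were 1, 0 and 2, without diploid clone 1 they were 2, 0 and 12, without diploid clone 2 they were 4, 0 and 15, without diploid clone 3 they were 1, 0 and 20, without tetraploid clone 1 they were 3, 0 and 4, and without tetraploid clone 3 they were 9, 0 and 2. The median shift ranged from 0.18 to 0.27 for triploid and from 0.13 to 0.32 for tetraploid clones. With no filter on dim probes, 2 members were called between triploid and diploid and 7 between triploid and tetraploid clones. With the slide as a block, which sets aside diploid clone 1, these counts were 2 and 12. Between tetraploid and diploid clones, 1 member, C1qtnf3, was called with the 75th percentile over detected probes, with normexp, with the mean over probes and with dark values raised to the lowest signal above background. Without centring the clones, the triploid median shift was 0.33. The cause of these changes was not tested, beyond the fewer or more features and samples that each setting holds. Neither median shift changed sign under any alternative.

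Clone numbers do not pair the samples: deviations of clones with the same number correlated between -0.13 and 0.09 over 9 pairs. With the replicate number as a block, 4 members were called between triploid and diploid, 0 between tetraploid and diploid and 13 between triploid and tetraploid clones. Signal over background limits the dim members, since 58 of 514 lay below background on at least 1 array.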
